A study of Mus musculus with 10 samples.

Results

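Periostin (Postn), tenascin C (Tnc), thrombospondin 1 (Thbs1), osteonectin (Sparc), Ccn2 (formerly Ctgf), fibronectin (Fn1), Cthrc1, lysyl oxidase (Lox), smooth muscle actin (Acta2) and transgelin (Tagln) were followed as the genes that mark the myofibroblast and its matrix in the infarcted heart. These 10 genes were taken by symbol and not by a cut on their values, although earlier results of these data were known. They came from the 51789 genes of a count table, and all 10 were among the 15232 genes with enough counts to be tested. The table holds RNA of cardiomyocytes isolated from mouse hearts 4 days after myocardial infarction (MI), with 5 libraries from transgenic mice that overexpress GRK5, a G protein-coupled receptor kinase (TgGRK5-MI), and 5 from their littermates without the transgene (NLC-MI). All mice of both groups had an MI and no sham-operated heart was part of the data, so a change caused by the infarction itself cannot be read from these values. The transgene is active in cardiomyocytes alone. The study's mice were young adults at the operation, the labels give no age or sex of the single mouse, and the sources used here name no sort of the isolated cells.

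After an infarction, resident fibroblasts of the heart turn into myofibroblasts, which gain contractile fibres of smooth muscle actin and fill the lost muscle with a collagen scar. They also secrete matricellular proteins, which are not structural parts of the matrix but act on cell adhesion, growth factors and collagen assembly. Transforming growth factor beta, the cofactors of serum response factor (SRF) and the YAP pathway are known drivers of this program. For most of these transcripts, cardiomyocytes are not the usual source.

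None of the 10 genes passed the test of TgGRK5-MI against NLC-MI, and for each of them the values of the groups overlapped, where 0.998% of all genes tested had groups that did not overlap. At an unadjusted p under 0.05, 0 of the 10 genes were counted in edgeR's quasi-likelihood test, against 3.85% of all genes tested (1.77% higher and 2.08% lower in TgGRK5-MI). At an adjusted p under 0.10 the count was also 0 of 10, against 0.0788% of all genes, and the adjusted p of every one of the 10 was 1.00. The log2 fold changes ran from -0.43 for Tnc to 0.51 for Acta2, 7 above 0 and 3 below, with a median of 0.11 where all genes tested had 0.00. The exact permutation test given beside each gene compares another quantity, the mean log2 CPM of the groups, in which a single low library weighs more. That difference was above 0 for 9 of the 10 genes, so for Postn and Thbs1 its sign is opposite to that of the fold change, and for Cthrc1 it is much larger. The libraries of a group lay far apart for these genes, and the highest of the 10 libraries was from 4.11-fold (Sparc) to 14.2-fold (Cthrc1) above the lowest.

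Library totals lay between 7968779 and 23381527 counts, the medians being 20540815 for NLC-MI and 18337488 for TgGRK5-MI. Grk5 itself averaged 60.3 ± 9.49 CPM (counts per 1000000 of the TMM-scaled library total; SD, n = 5) over the NLC-MI libraries and 1221 ± 472 CPM (SD, n = 5) over those of TgGRK5-MI, so the libraries matched their labels. Summed over 8 markers of cardiomyocytes, the libraries held 47372 to 121469 CPM, more than any other marker list. Markers of other heart cells were nevertheless present in every library, with 3787 to 21923 CPM for 8 fibroblast markers and 600 to 2031 CPM for 7 macrophage markers. The values below are therefore those of RNA from a mixture, in which fewer cells of a type and less RNA per cell cannot be told apart.

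Promoter sequence was held by the RefSeq table of GRCm38.p6 for 4 of the 10 genes. Shown is the promoter of Acta2, the contractile gene with the highest fold change of the 10. Of Postn, the standard marker of activated fibroblasts, 1 of 2 promoters is shown. Each run is the 250 bases just before the annotated start, read 5′ to 3′ on the strand of the gene. Capitals mark the hexamer TATAAA and CArG-like elements, the type of site that SRF binds, here with 1 base of the core of A and T changed to G or C.
Acta2, chr19:34255374-34255623, minus strand: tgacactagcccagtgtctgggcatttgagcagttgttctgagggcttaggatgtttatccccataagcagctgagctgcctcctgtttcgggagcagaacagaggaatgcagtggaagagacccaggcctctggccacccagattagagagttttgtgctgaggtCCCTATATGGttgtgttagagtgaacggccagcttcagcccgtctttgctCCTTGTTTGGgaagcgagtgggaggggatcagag
Postn, chr3:54360857-54361106, plus strand: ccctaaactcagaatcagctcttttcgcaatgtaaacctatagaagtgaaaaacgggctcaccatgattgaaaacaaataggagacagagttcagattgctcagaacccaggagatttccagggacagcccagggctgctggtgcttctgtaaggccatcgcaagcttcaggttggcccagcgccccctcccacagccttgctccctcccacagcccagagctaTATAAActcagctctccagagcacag
Acta2, the actin isoform of smooth muscle and of myofibroblast stress fibres, held 2 CArG-like elements, at -84 to -75 and at -34 to -25 from the start. Of the 32851 promoters in the table, 7.245% held at least 1 such element on either strand and 0.5479% held 2 or more. An unchanged CArG box was in 1.467% of all promoters and in none of the 6 used for these 4 genes. The Postn promoter shown carried TATAAA at -26 to -21, a hexamer found in 12.37% of promoters, and the other Postn promoter did not. The 2 overlapping promoters of Tnc held it too, at -126 to -121 and at -205 to -200. The promoter of Sparc held neither a CArG-like element nor TATAAA. The TEAD-type hexamer GGAATG (12.64% of promoters) was found in Acta2 alone of the 4 genes, at -146 to -141, and the AP-1 type TGANTCA (6.749%) in none of them. Such matches describe letters in a window and say nothing of which factor was bound.

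Among the matricellular genes, Postn, which encodes a secreted protein that binds integrins and aids collagen crosslinking, is the standard marker of activated heart fibroblasts. Postn (ENSMUSG00000027750, GRCm38 chromosome 3 from 54361109 to 54391037) was at 3318, 2908, 699, 688 and 290.0 CPM in NLC-MI replicates 1 to 5 and at 1757, 2959.7, 431, 1469.6 and 1245 CPM in TgGRK5-MI replicates 1 to 5. The highest and the lowest library were both in NLC-MI, and the TgGRK5-MI values lay between them. Its log2 fold change was -0.01 (standard error 0.65, 95% interval -1.43 to 1.42, difference of mean log2 CPM 0.32, exact permutation test p = 0.690), so that anything from a 0.370-fold to a 2.67-fold level in TgGRK5-MI remained within the interval. Tnc, a large oligomeric glycoprotein of wound edges that loosens cell adhesion, had the lowest fold change of the 10. Tnc (ENSMUSG00000028364, chromosome 4 from 63959785 to 64047015) was at 713, 675, 388, 439.9 and 82.0 CPM in the NLC-MI libraries and 379.9, 492, 132, 405 and 292 CPM in the TgGRK5-MI libraries. Replicates 1 and 2 of NLC-MI lay above all TgGRK5-MI libraries, while replicate 5 lay below them all. The log2 fold change of -0.43 (standard error 0.48, 95% interval -1.48 to 0.62) was smaller than this spread (difference of mean log2 CPM -0.24, exact permutation test p = 0.698). Without NLC-MI replicate 5 it was -0.71 (edgeR unadjusted p = 0.0606, adjusted p = 0.957).

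Thbs1, a trimeric glycoprotein that activates latent transforming growth factor beta and inhibits vessel growth, lies on chromosome 2 from 118111876 to 118127133 (ENSMUSG00000040152). It was at 429, 329, 183, 172 and 44.8 CPM in NLC-MI and 292, 379, 163, 163 and 119.5 CPM in TgGRK5-MI. The TgGRK5-MI values again fell inside the NLC-MI range, with a log2 fold change of -0.05 (95% interval -1.13 to 1.02, difference of mean log2 CPM 0.16, exact permutation test p = 0.857). Sparc, a collagen-binding protein needed for the maturation of the infarct scar, lies on chromosome 11 from 55394500 to 55423183 (ENSMUSG00000018593). Its values were 3263, 2784, 1539, 1436 and 794 CPM in NLC-MI and 2142, 3257, 1173, 2474 and 1924 CPM in TgGRK5-MI. Sparc had the smallest range of the 10 genes, 4.11-fold over all libraries, and a log2 fold change of 0.16 (95% interval -0.71 to 1.03, difference of mean log2 CPM 0.26, exact permutation test p = 0.556). Ccn2, a growth factor-binding protein and a common target gene of YAP and transforming growth factor beta, lies on chromosome 10 from 24595442 to 24598683 (ENSMUSG00000019997). Ccn2 was at 616, 523, 359.8, 583 and 112 CPM in NLC-MI and 366, 568, 334, 619.8 and 451 CPM in TgGRK5-MI. Apart from NLC-MI replicate 5, its 9 other libraries lay between 334 and 619.8 CPM, and the log2 fold change was 0.09 (95% interval -0.73 to 0.91, difference of mean log2 CPM 0.27, exact permutation test p = 0.746). Of the 50-base words of Ccn2, 17.23% also occur on the opposite strand of Gm15270, which had 19 to 58 counts per library against at least 1712 for Ccn2, and no source used here says whether the counting took strand into account.

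The contractile genes were Acta2 and Tagln. Acta2 (ENSMUSG00000035783, chromosome 19 from 34241090 to 34255590) had the highest fold change of the 10 genes. It was at 678, 556, 500.0, 325 and 173 CPM in NLC-MI and at 592, 893, 536, 685 and 465 CPM in TgGRK5-MI. All 5 TgGRK5-MI libraries lay above the NLC-MI mean of 446 CPM, yet 3 of the 5 NLC-MI libraries were above the lowest TgGRK5-MI library. The log2 fold change of 0.51 (standard error 0.33, 95% interval -0.21 to 1.22) corresponds to a 1.42-fold level, and it did not pass the test (difference of mean log2 CPM 0.62, exact permutation test p = 0.159, edgeR unadjusted p = 0.148). Without NLC-MI replicate 5 it was 0.29 (edgeR unadjusted p = 0.269). Of the 50-base words of Acta2, 0.3262% also occur in other genes, among them the cytoplasmic actin gene Actg1. Tagln, an actin-binding protein of smooth muscle (ENSMUSG00000032085, chromosome 9 from 45929619 to 45936058), was at 333, 256, 62.2, 69.2 and 34.3 CPM in NLC-MI and 163, 392, 55.7, 95.6 and 145 CPM in TgGRK5-MI. The log2 fold change of Tagln was 0.17 (95% interval -1.23 to 1.57, difference of mean log2 CPM 0.39, exact permutation test p = 0.619), with the groups spanning nearly the same range. Of its 50-base words, 55.37% are found on the opposite strand of Gm48529 and 2.975% on that of Pcsk7, so the Tagln value carries an uncertainty of strand, although Gm48529 itself had no more than 45 counts in any library where Tagln had 476 to 8988, and Pcsk7 had 107 to 682.

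The genes of matrix structure and crosslinking were Fn1, Cthrc1 and Lox. Fibronectin is the provisional matrix on which myofibroblasts lay down collagen, and Fn1 (ENSMUSG00000026193, chromosome 1 from 71585520 to 71653200) was at 2628, 3638, 1022, 1219 and 484 CPM in NLC-MI and 2611, 3451, 569, 2039 and 1191 CPM in TgGRK5-MI. The lowest NLC-MI value lay below all TgGRK5-MI values, the lowest TgGRK5-MI value lay above that 1 library alone, and the log2 fold change was 0.13 (95% interval -1.10 to 1.37, difference of mean log2 CPM 0.22, exact permutation test p = 0.770). On the opposite strand of Fn1, Thbs1 and Tnc, the overlapping genes Apol7d, Gm29233 and 8030451A03Rik had at most 12, 0 and 2 counts in a library. Cthrc1, a secreted protein of fibroblasts in healing infarcts, lies on chromosome 15 from 39076932 to 39087121 (ENSMUSG00000054196). It was at 177, 151, 28.6, 34.4 and 14.1 CPM in NLC-MI and 91.7, 199, 26.6, 62.9 and 60.3 CPM in TgGRK5-MI, the widest range of the 10 genes. Its log2 fold change was 0.12 (standard error 0.68, 95% interval -1.37 to 1.61, difference of mean log2 CPM 0.46, exact permutation test p = 0.603). Even the lowest library held 215 reads of Cthrc1, and the counting error is small beside the spread between libraries. Lox, the enzyme that starts the crosslinks of collagen and elastin, lies on chromosome 18 from 52516067 to 52529867 (ENSMUSG00000024529). Lox was at 364, 273, 106, 151 and 36.9 CPM in NLC-MI and 242, 344, 61.4, 207 and 143 CPM in TgGRK5-MI, with a log2 fold change of 0.10 (95% interval -1.10 to 1.29, difference of mean log2 CPM 0.27, exact permutation test p = 0.722).

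**Figure D1:**
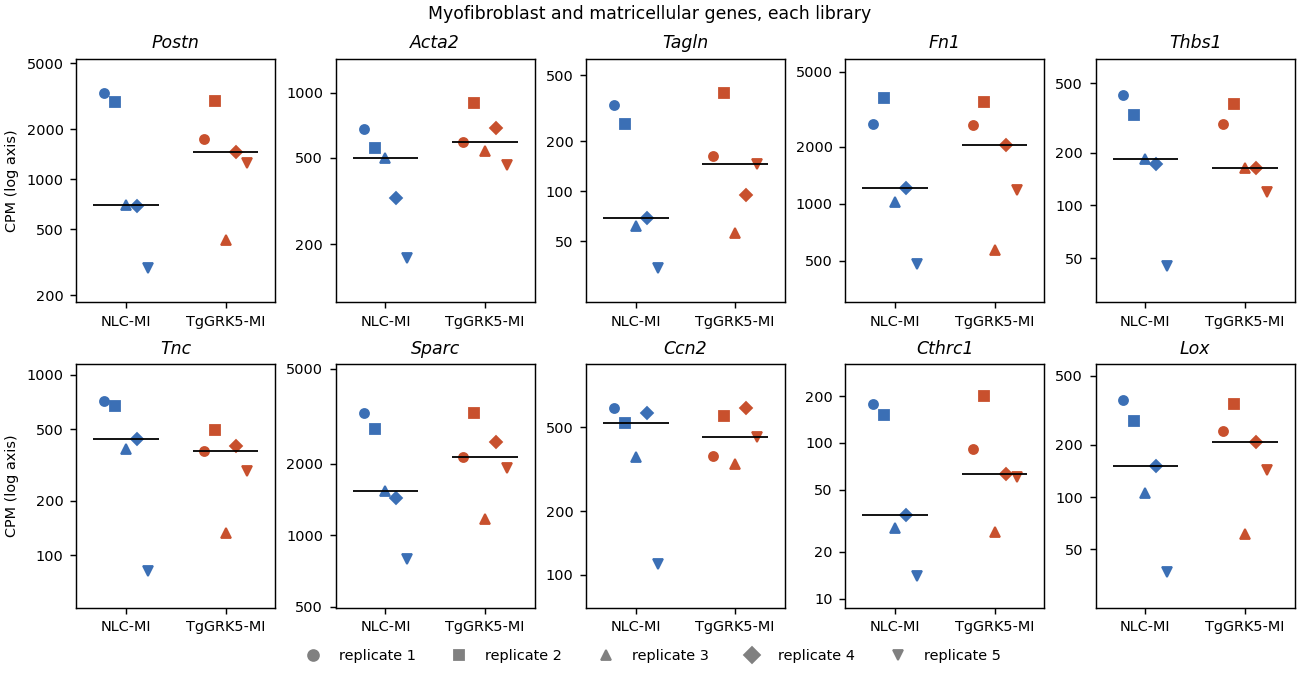
CPM of each gene (log axis) in the 5 NLC-MI and the 5 TgGRK5-MI libraries, with 1 point per library, its shape giving the replicate number, and a black line at the median of the group. The groups overlap for all 10 genes, and NLC-MI replicate 5 is the lowest point in every panel, from 14.1 CPM for Cthrc1 to 794 CPM for Sparc.

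Between the genes, levels can be compared only per length, here as the median CPM per kilobase of exon over the 10 libraries. For this length the exons of all annotated transcripts of a gene were merged. That gave 8702 bases from 9 transcripts for Postn, 11685 from 17 for Fn1 and 2861 from 3 for Ccn2. Merged exons can be longer than a single transcript, so the order holds for this length alone. Sparc led with 537, followed by Acta2 with 248, Ccn2 with 170.1, Postn with 156 and Fn1 with 139 CPM per kilobase. Sparc was above Acta2 and Fn1 above Tagln in all 10 libraries, whereas Ccn2 exceeded Postn in 6 and Postn exceeded Fn1 in 5 of 10 libraries, so the order of these 3 was not stable. Tagln (60.6), Tnc (51.0), Cthrc1 (38.7), Lox (37.4) and Thbs1 (29.3 CPM per kilobase) formed the lower part, and there each gene exceeded the next in 5 to 8 of 10 libraries.

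NLC-MI replicate 5 was the lowest library for all 10 genes. The highest library was NLC-MI replicate 1 for Postn, Thbs1, Tnc, Sparc and Lox, TgGRK5-MI replicate 2 for Acta2, Tagln and Cthrc1, NLC-MI replicate 2 for Fn1 and TgGRK5-MI replicate 4 for Ccn2. The SD of log2 CPM over the 10 libraries ran from 0.66 for Acta2 to 1.29 for Cthrc1. A spread at least as large as that of Cthrc1 was seen in 2.58% of all genes tested, and one as large as that of Acta2 in 16.1%. Leaving out single libraries moved the log2 fold changes accordingly, within -0.42 to 0.62 for Cthrc1 and within 0.29 to 0.70 for Acta2, and none of these fits brought any of the 10 genes to an unadjusted p under 0.05.

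The same libraries stood high and low for the fibroblast markers (Pdgfra, Tcf21, Dcn, Lum, Dpt, Col1a1, Col1a2 and Col3a1), none of which is among the 10 genes. Their summed CPM was 20360.4, 21280.5, 5137, 6822 and 3787 in NLC-MI replicates 1 to 5 and 12463, 21923, 3793, 8319.7 and 6981 in TgGRK5-MI replicates 1 to 5. The difference of the sums between the groups was smaller than their spread (log2 difference 0.01, exact permutation test p = 0.960). Cardiomyocyte markers ran the other way, highest in NLC-MI replicate 5 and lowest in NLC-MI replicate 1. The smooth muscle sum was likewise high in NLC-MI replicates 1 and 2 (104 and 101 CPM) and TgGRK5-MI replicate 2 (99.3 CPM). The macrophage sum was highest in TgGRK5-MI replicate 2 (2031 CPM), followed by NLC-MI replicate 1 (1809 CPM). Pericyte and endothelial sums peaked in TgGRK5-MI replicate 4, platelet and neutrophil sums in NLC-MI replicate 3. The mesothelial sum peaked in TgGRK5-MI replicate 1. The 10 genes were not tested against these other sums. CPM are shares of a library, so a larger share for one cell type leaves less for the others.

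Over the 10 libraries, the log2 CPM of each gene was compared with the log2 fibroblast sum (permutation tests with 100000 draws, 10 relations). Pearson's r was highest for Cthrc1 at 0.971 (Spearman's rho 0.988), then 0.963 (rho 0.952) for Postn, 0.958 (rho 0.976) for Fn1, 0.957 (rho 0.976) for Tagln, 0.928 (rho 0.952) for Lox and 0.918 (rho 0.939) for Sparc. For these 6 genes the permutation p was at most 0.00018 for r and 0.00025 for rho. Thbs1 had an r of 0.838 (permutation p = 0.00084, rho 0.818, p = 0.00605) and Tnc an r of 0.822 (permutation p = 0.00094, rho 0.794, p = 0.00898). Acta2 and Ccn2 had the lowest r with this sum, which for Acta2 did not hold once the collagens were left out of it, as given further on. Acta2 had an r of 0.663 (permutation p = 0.0247, adjusted over the 10 relations 0.0260, rho 0.782, p = 0.0101), and Ccn2 an r of 0.631 (permutation p = 0.0260, adjusted 0.0260, rho 0.636, p = 0.0534). Across all genes tested, 3.07% had an r of 0.9 or more and 17.3% one at least as high as that of Ccn2. Without TgGRK5-MI replicate 2 and NLC-MI replicate 2, the 2 libraries farthest from the median of the sum, r stayed between 0.602 for Acta2 and 0.958 for Cthrc1. Without the 3 libraries with the highest sums, it ran from 0.543 for Acta2 to 0.974 for Fn1 over the other 7 libraries.

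**Figure D2:**
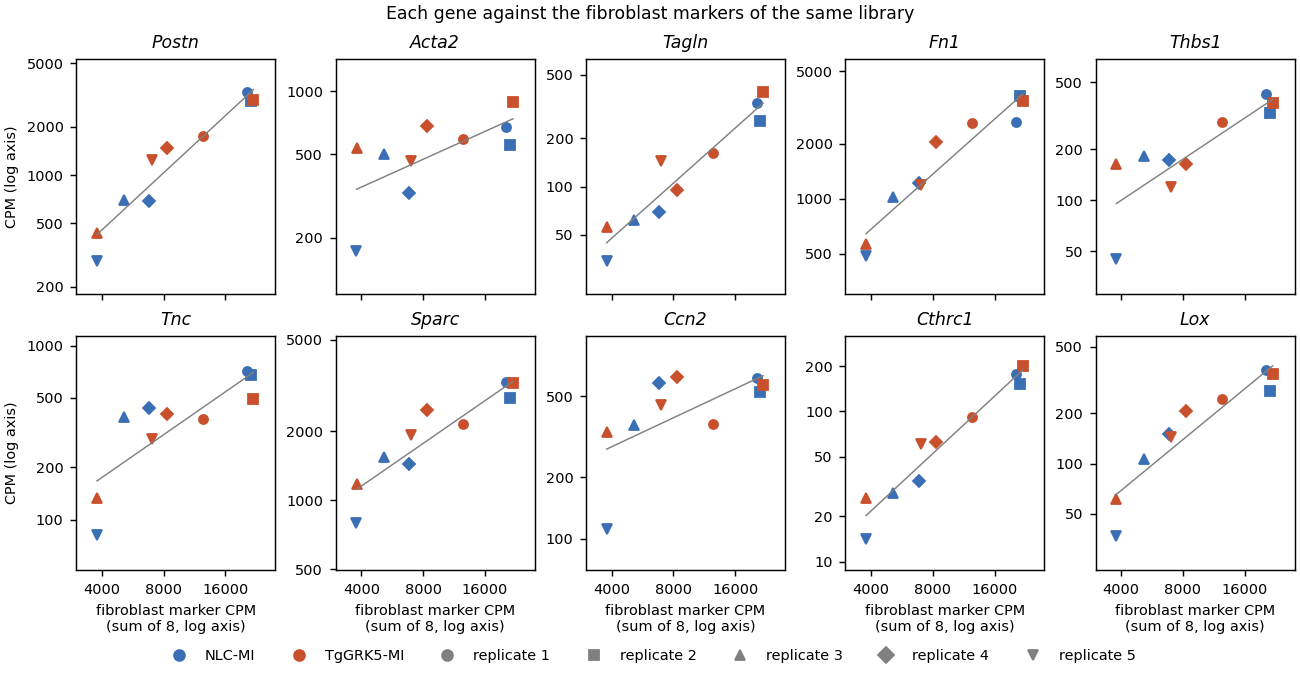
CPM of each gene against the summed CPM of 8 fibroblast markers in the same library, both on log axes, with 1 point per library coloured by group and a grey least-squares line on the log2 scale. Points lie close to the grey line for Cthrc1 (r = 0.971) and Postn (r = 0.963). For Cthrc1, r was 0.993 within each group. Its ratio to the sum was higher in all 5 TgGRK5-MI libraries than in NLC-MI replicates 3, 4 and 5. Points scatter more widely for Acta2 (r = 0.663) and Ccn2 (r = 0.631) against this sum, which includes 3 collagens.

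The slope on the log2 scale was 1.26 ± 0.11 (standard error) for Cthrc1, 1.19 ± 0.12 for Postn, 1.14 ± 0.12 for Tagln, 1.01 ± 0.14 for Lox and 1.00 ± 0.11 for Fn1. It was 0.62 ± 0.09 for Sparc, 0.47 ± 0.21 for Ccn2 and 0.44 ± 0.18 for Acta2, more than 2 standard errors below 1 for each of these 3 genes. Of the 8 markers, the 3 collagen genes make up most of the sum, and collagen genes are themselves part of the myofibroblast program. With the 5 other markers alone, 8 of the 10 genes had an adjusted permutation p under 0.05, r was 0.885 for Sparc, 0.884 for Cthrc1, 0.882 for Postn and 0.805 for Acta2, and Tnc (r = 0.631, adjusted permutation p = 0.0504) and Ccn2 (r = 0.522, adjusted permutation p = 0.0980) were not among the 8. Acta2 was then above Thbs1 (r = 0.760) and level with Lox (r = 0.804). The slopes against these 5 markers were 1.11 ± 0.21 for Sparc, 1.00 ± 0.26 for Acta2 and 0.73 ± 0.42 for Ccn2, none of them more than 2 standard errors below 1. Other slopes were steeper, at 2.14 ± 0.40 for Cthrc1, 2.02 ± 0.38 for Postn and 1.87 ± 0.42 for Tagln, each more than 2 standard errors above 1. Fn1 was at 1.63 ± 0.37, Lox at 1.63 ± 0.42, Thbs1 at 1.37 ± 0.41 and Tnc at 1.17 ± 0.51.

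**Figure D3:**
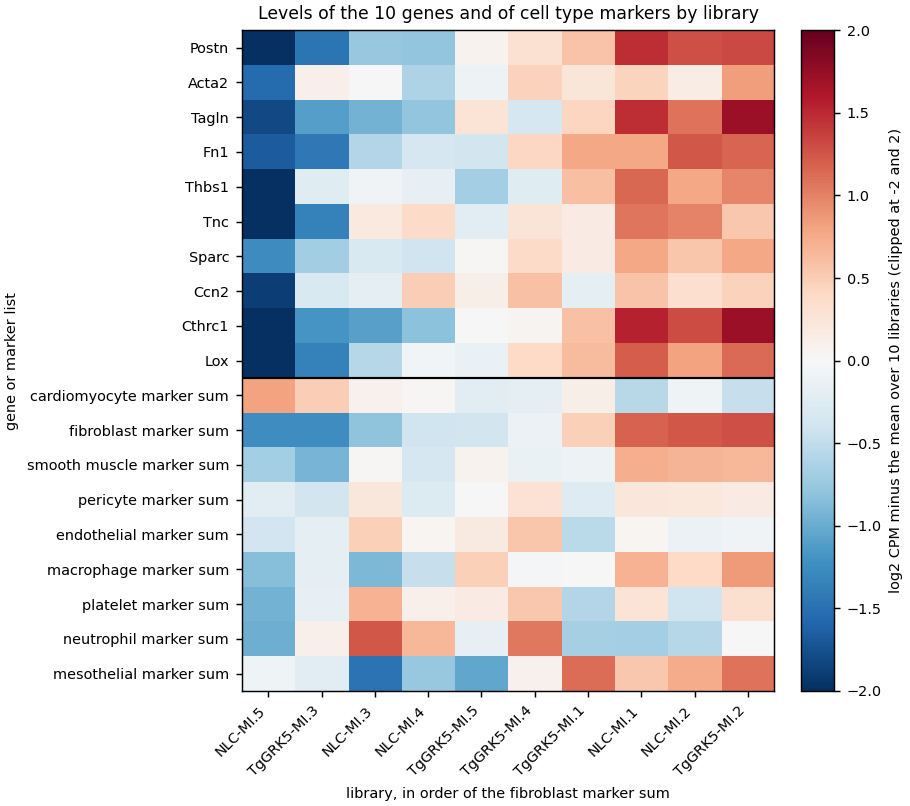
log2 CPM of the 10 genes (above the line) and log2 summed CPM of 9 lists of cell type markers (below it) in each library, as the difference from the mean over the 10 libraries (colour, clipped at -2 and 2), with libraries ordered by the fibroblast sum. Most of the 10 genes run from low in NLC-MI replicate 5 (3787 CPM of fibroblast markers) to high in TgGRK5-MI replicate 2 (21923 CPM), with libraries of both groups at each end, while cardiomyocyte markers run from high to low. Ccn2 (r = 0.631), highest in TgGRK5-MI replicate 4, and Acta2 (r = 0.663) follow this order less closely.

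When the fibroblast sum entered the edgeR fit as a covariate, Acta2 and Cthrc1 came to an unadjusted p under 0.05. The log2 fold change of Acta2 was then 0.56 (standard error 0.24, unadjusted p = 0.0384, edgeR adjusted p = 0.734) and that of Cthrc1 0.44 (standard error 0.15, unadjusted p = 0.0111, edgeR adjusted p = 0.566). These 2 of 10 genes stand beside 6.64% of all genes tested in the same fit, and neither passed the adjusted threshold, which 0.19% of all genes did. With the 5 markers other than collagens as the covariate, 0 of the 10 genes had an unadjusted p under 0.05 (4.92% of all genes, and 0.125% at an adjusted p under 0.10), Acta2 was at 0.34 (unadjusted p = 0.168, edgeR adjusted p = 0.967) and Cthrc1 turned to -0.11 (unadjusted p = 0.762, edgeR adjusted p = 0.993). The higher value of Cthrc1 was thus seen with the full fibroblast sum as the covariate and not with the 5 markers. Which of the markers this rested on was not tested.

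**Figure D4:**
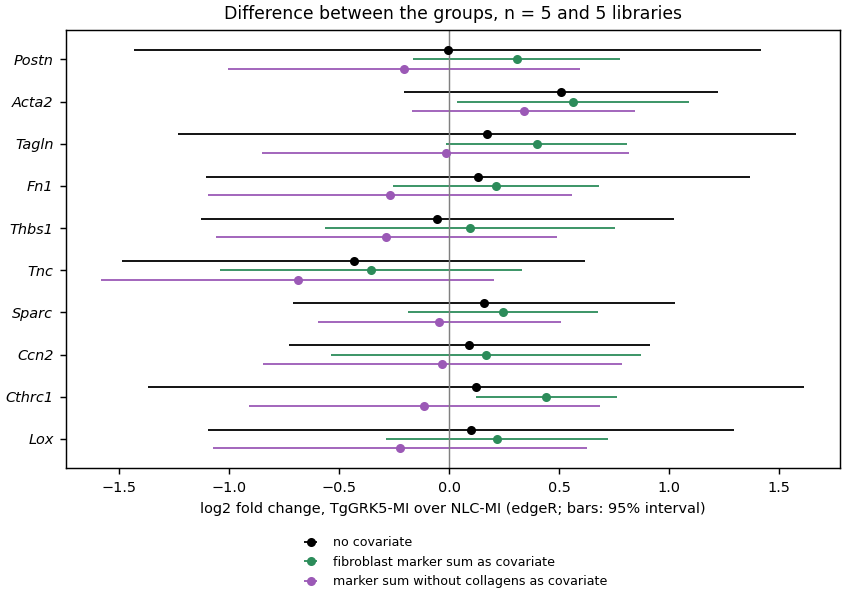
log2 fold change (TgGRK5-MI over NLC-MI, points) with its 95% interval (bars) for each gene in 3 edgeR fits of the 5 and 5 libraries, without a covariate (black), with the fibroblast marker sum (green) and with the sum of the markers other than collagens (purple). All 10 intervals without a covariate include 0, and with the fibroblast sum those of Acta2 (0.04 to 1.09) and Cthrc1 (0.12 to 0.76) do not.

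Taken as a ratio per 1000 CPM of fibroblast markers, Cthrc1 was at 8.67, 7.09, 5.57, 5.04 and 3.71 CPM in NLC-MI and 7.36, 9.09, 7.02, 7.56 and 8.64 CPM in TgGRK5-MI. All 5 TgGRK5-MI ratios were above those of NLC-MI replicates 3, 4 and 5, and NLC-MI replicates 1 and 2 lay among them (log2 difference 0.45, exact permutation test p = 0.0794). Over all comparisons without 1 library the difference ran from 0.29 (without NLC-MI replicate 5) to 0.60 (without NLC-MI replicate 1). The exact permutation test gave p = 0.0159 without NLC-MI replicate 1, the only 1 of these p under 0.05, and up to 0.151 (without TgGRK5-MI replicate 2). The share of all genes at such a p with a library left out was not taken. As a ratio to the 5 markers other than collagens, the difference for Cthrc1 was 0.20 (exact permutation test p = 0.738). For Acta2 the ratio was 33.3, 26.1, 97.3, 47.7 and 45.6 CPM in NLC-MI and 47.5, 40.7, 141, 82.3 and 66.6 CPM in TgGRK5-MI, with overlapping groups (log2 difference 0.61, exact permutation test p = 0.214). Without single libraries this difference ran from 0.34 (without TgGRK5-MI replicate 3) to 0.88 (without NLC-MI replicate 3), and as a ratio to the 5 other markers it was 0.35 (exact permutation test p = 0.167). By this test 0 of the 10 genes had a p under 0.05, against 0.269% of all genes tested.

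Among the markers of all cell types looked at, 51 genes of 9 lists were tested, and 2 of them had an unadjusted p under 0.05. That count stands beside 3.85% of all genes tested and is close to it. The 2 were Ryr2, the calcium release channel of cardiomyocytes (log2 fold change -0.93, edgeR unadjusted p = 0.00902, adjusted p = 0.968), and Cspg4, a proteoglycan of pericytes (-0.62, edgeR unadjusted p = 0.0497, adjusted p = 1.00). Both were lower in TgGRK5-MI, as were 2.08% of all genes tested at that p. Of the defining markers that could not be tested, Ly6g and Retnlg of neutrophils and Gp9 of platelets were under 1 CPM in every library. The smooth muscle sum (Myh11, Cnn1, Lmod1 and Actg2) lay between 39.2 and 104 CPM in NLC-MI and between 32.8 and 99.3 CPM in TgGRK5-MI. Acta2 and Tagln are genes of vascular smooth muscle as well, and the part of these cells in the values was not tested. The macrophage sum was 600 to 1809 CPM in NLC-MI and 988 to 2031 CPM in TgGRK5-MI (exact permutation test, p = 0.238).

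The 10 genes moved together, with a Pearson r between 0.668 and 0.989 for the 45 pairs (median 0.864, over the same 10 libraries and their shared depth and composition, given as a description). Closest to their mean standardized log2 CPM were Gpr176 (r = 0.994), an orphan receptor, and Mmp14 (r = 0.994), a membrane-bound collagenase. Next came Col8a1 (0.990), a short-chain collagen, Ccn4 (0.986), Srpx2 (0.986), Mfap5 (0.985), a protein of elastic microfibrils, Nrg1 (0.984), a ligand of ErbB receptors, and P2rx7 (0.982), an ATP-gated channel. Mmp14 lay between 42.8 and 297 CPM and Gpr176 between 2.16 and 18.4 CPM over the libraries. Nrg1 did not exceed 7.92 CPM.

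Of 96 further genes in 6 lists of the same biology, 1 had an unadjusted p under 0.05, and none had an adjusted p under 0.10. That gene was Pcolce2, an enhancer of procollagen processing, at 14.6 to 33.3 CPM in NLC-MI and 34.2 to 45.1 CPM in TgGRK5-MI, so that its groups did not overlap. A share of 1 in 96 is close to the 0.998% of all genes tested with such groups and below the 3.85% with an unadjusted p under 0.05. The difference on the log2 scale was 0.62 (standard error 0.20, edgeR unadjusted p = 0.00972, adjusted p = 0.982), and it is the member of the 16 genes of collagen crosslinking and processing that differed most by p. The median log2 fold change of that list was 0.07, and its lysyl oxidase relatives were at 0.10 (Loxl1), 0.15 (Loxl2), 0.17 (Loxl3) and -0.42 (Loxl4), none of them past the test.

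Of the 15 other matricellular genes, 0 had an unadjusted p under 0.05 (10 log2 fold changes above 0 and 5 below, median 0.05). Ccn1, the relative of Ccn2 and likewise a YAP target, had the smallest p, at 198 to 434 CPM in NLC-MI and 154 to 256 CPM in TgGRK5-MI (log2 fold change -0.44, edgeR unadjusted p = 0.0760, adjusted p = 1.00). Tnxb, a tenascin of connective tissue, was next at -0.41 (edgeR unadjusted p = 0.138). Of the 17 contractile and SRF target genes, again 0 were counted, with a median of -0.02, where Smtn, a protein of smooth muscle filaments, was at -0.22 (edgeR unadjusted p = 0.124) and Cnn1, calponin, at -0.60 (edgeR unadjusted p = 0.311). The 15 activated fibroblast genes had 12 log2 fold changes above 0 and a median of 0.10, but 0 were counted, and the smallest p belonged to Pdpn (0.48, edgeR unadjusted p = 0.129) and Ddah1 (0.41, edgeR unadjusted p = 0.457). This list varied between libraries as much as the 10 genes did, with a median SD of log2 CPM of 1.06 against 1.01, where all genes tested had 0.39.

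The receptors through which matricellular proteins act on cells, mostly integrins, varied less (median SD 0.49). Of 13 such genes 0 were counted (median log2 fold change -0.01), with the smallest p for the fibronectin receptor subunits Itga4 (0.30, edgeR unadjusted p = 0.318) and Itga5 (-0.23, edgeR unadjusted p = 0.408). Among the 20 regulators of the myofibroblast program, 15 log2 fold changes were below 0 and 5 above, with a median of -0.07 and a median SD of 0.42, and 0 had an unadjusted p under 0.05. Yap1, the transcriptional coactivator of the Hippo pathway, was just outside at 92.1 to 115 CPM in NLC-MI and 74.7 to 96.0 CPM in TgGRK5-MI (log2 fold change -0.27, edgeR unadjusted p = 0.0503, adjusted p = 1.00). Smad7, the inhibitory SMAD, was at 18.5 to 27.7 CPM in NLC-MI and 14.1 to 21.1 CPM in TgGRK5-MI (-0.35, edgeR unadjusted p = 0.0590, adjusted p = 1.00).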

How the data were processed

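Libraries were prepared with an Illumina TruSeq RNA kit from cardiomyocytes of 5 NLC-MI and 5 TgGRK5-MI mice, 1 library per mouse, and grouped by their labels. The deposited values are counts per Ensembl gene, whole numbers that the authors did not normalize. The submitters' processing notes name Bowtie2, RSEM 1.2.31, DESeq2 and mm10, without their roles, and a strand setting is not given in the sources used here. Symbols, positions and exons came from GENCODE M21 (GRCm38), where 51596 of the 51789 identifiers were found, and promoters from RefSeq on GRCm38.p6.

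Counts were analysed in R 4.3.3. In edgeR 4.0.16, filterByExpr kept 15232 of the 28506 genes with any count, TMM factors scaled the libraries, and TgGRK5-MI was tested against NLC-MI by the quasi-likelihood F test, with Benjamini-Hochberg adjustment over all genes tested. Genes were counted at an adjusted p under 0.10 and at an unadjusted p under 0.05. Single genes were also tested by the two-sided exact permutation test of mean log2 CPM (prior count 2, 252 placements, smallest p 0.00794). Correlations used two-sided permutation tests. Totals of 7968779 to 23381527 counts put 3 counts, taken as the floor, at 0.121 to 0.392 CPM. P-values and 95% intervals of the group differences set each difference against the spread between libraries. Those of the correlations came from shuffling the 10 libraries and refer to the relation over both groups together.

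The 10 genes, the 6 pathway lists and the 9 marker lists were chosen with earlier results of these data known. Named are all 10 genes, in each pathway list the genes with an unadjusted p under 0.05 (up to 4, otherwise the 2 with the smallest p), the 8 genes most correlated with the mean of the 10, and the cell type markers. Loxl1 to Loxl4 were named after their values were seen. Alternatives tried were DESeq2 1.42.0, limma-voom (limma 3.58.1) with quality weights, RLE factors in edgeR, scaling by library size only, no filter, at least 10 counts in every library, the robust fit, a replicate block, leave-one-out fits, and the fibroblast marker sum as a covariate. That covariate without collagens, the library size as a covariate, the 7 deepest libraries, the ratio to the marker sum, and correlations without the 3 highest sums or without NLC-MI replicate 5 were chosen after seeing the data.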

Additional observations from a re-analysis of the deposited data

How the results depend on the processing

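Across all alternatives, none of the 10 genes reached an adjusted p under 0.10. The number of them with an unadjusted p under 0.05, 0 in the report, was 1 with the replicate block (3.97% of all genes tested) and 2 with the fibroblast sum as a covariate, and 0 in every other fit, leave-one-out fits included (0 to 0). Over all genes, 12 had an adjusted p under 0.10, against 69 with DESeq2, 50 with limma-voom, 29 with the fibroblast covariate, 19 with that covariate without collagens, 20 with the library size as a covariate, 6 in the 7 deepest libraries, and 3 to 10 with each library left out. Of the 96 pathway genes, 1 had an unadjusted p under 0.05, against 3 with RLE factors and 2 with library size alone. The count was 4 with DESeq2, 6 with limma-voom, 2 with at least 10 counts in every library and 2 with the replicate block. With the fibroblast covariate it was 8, with that covariate without collagens 3, and with the library size as a covariate 4. In the 7 deepest libraries it was 3, and with each library left out 1 to 5. These counts stand beside those of all genes tested. There, 3.85% had such a p in the report, 3.97% with the replicate block, 6.64% with the fibroblast covariate and 4.92% with it without collagens. Among 15232 genes tested, RLE factors gave 240 higher and 386 lower at that p, and library size alone gave 296 and 328. Limma-voom gave 1138 and 672, and the library size as a covariate 464 and 483. DESeq2 gave 352 and 493 of 28506 genes, and at least 10 counts in every library 209 and 265 of 13059. The 7 deepest libraries gave 208 and 303 of 15683, and leave-one-out fits 176 to 591 higher and 264 to 536 lower. The causes were not tested.

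Replicate numbers are shared by the groups, but nothing in the labels says that a number pairs mice. The deviations of same-numbered libraries had correlations over genes of 0.0717, 0.662, 0.381, -0.341 and 0.0848, so the numbers were not taken as pairs. With the replicate block, 8 genes had an adjusted p under 0.10, and Acta2 was at 0.62 (edgeR unadjusted p = 0.0456, adjusted p = 1.00). Of the 10 libraries, 2 correlated best with their own number.

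Signs of small log2 fold changes turned between settings. With limma-voom they were -0.20 for Tagln, -0.35 for Fn1, -0.13 for Sparc, -0.17 for Ccn2, -0.28 for Cthrc1 and -0.24 for Lox. With the fibroblast covariate without collagens they were -0.016 for Tagln, -0.27 for Fn1, -0.044 for Sparc, -0.030 for Ccn2, -0.11 for Cthrc1 and -0.22 for Lox. Postn was at 0.30 and Thbs1 at 0.15 with the replicate block, at 0.31 and 0.10 with the fibroblast covariate, and at 0.14 and 0.11 in the 7 deepest libraries, and Postn was at 0.17 with the library size as a covariate. Without single libraries, the values ran from -0.16 to 0.24 for Ccn2, -0.42 to 0.62 for Cthrc1, -0.17 to 0.56 for Fn1, -0.19 to 0.48 for Lox, -0.37 to 0.44 for Postn, -0.047 to 0.41 for Sparc, -0.40 to 0.68 for Tagln, -0.33 to 0.28 for Thbs1, -0.71 to -0.23 for Tnc and 0.29 to 0.70 for Acta2. The 2 that kept their sign in every fit were Acta2 and Tnc. The lowest count of any of the 10 genes in a library was 215 reads, so counting error was small beside the spread between mice.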
